A study of Mus musculus with 8 samples.

Results

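The mRNAs of 10 CXC chemokines were measured in tumor-associated macrophages (TAMs) of mice with and without miR-21. The 10 genes, Cxcl1, Cxcl2, Cxcl3, Cxcl9, Cxcl10, Cxcl11, Cxcl12, Cxcl13, Cxcl14 and Cxcl16, were taken by gene symbol from a table of 53247 genes, and all 10 were found in it. RNA-Seq was run on 8 samples, 4 from WT and 4 from miR-21 null hosts, the null allele being carried by every cell of the host. The hosts were of the C57/BL6 strain and received Lewis lung carcinoma (LLC) cells, a mouse lung tumor line, under the skin at 8 weeks of age. After 14 days, at 10 weeks, tumors were digested and cells sorted as CD45+ CD11b+ MHCII+ F4/80+. The title of miR-21 null replicate 1 joins a pair of numbers, and whether that sample was pooled is not given in the sources used here.

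CXC chemokines are small secreted proteins that steer leukocytes through G protein-coupled receptors. Cxcl9, Cxcl10 and Cxcl11 bind CXCR3, are induced by interferons and attract activated T cells and NK cells, and they also restrain vessel growth. Cxcl1, Cxcl2 and Cxcl3 bind CXCR2, are induced through NF-κB and attract neutrophils, and ligands of this group promote vessel growth. Cxcl12 binds CXCR4, Cxcl13 binds CXCR5, Cxcl16 is a membrane-anchored ligand of CXCR6, and Cxcl14 is made mainly by epithelial and stromal cells.

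Levels are in CPM, counts scaled to 1e+06 reads of a sample, with between 20.2 and 33.4 reads per sample in units of 1e+06, so that 1 read was worth 0.02998 to 0.0495 CPM. Differences are log2 fold changes of miR-21 null over WT of log2(CPM + 1), so that genes with low levels changed by more than these values show. They were fitted with limma over the 13850 genes that passed a filter on low values, with Benjamini-Hochberg adjustment over all of them. A gene was called when its adjusted p was at or under 0.005 and its fold change over 1.5. Of all tested genes 7.12% were called, 2.89% higher and 4.23% lower in miR-21 null TAMs, and the median log2 fold change was -0.10. With samples rescaled by the median of ratios the numbers of genes called higher and lower went from 400 and 586 to 520 and 350. The 10 macrophage markers examined summed to 9711 to 11008 CPM in WT and 9054 to 10543 CPM in miR-21 null samples, with Itgam, the CD11b chain of the sort, highest at 2052 and 1956 CPM. Of the 10, 1 rose, Fcgr1, none fell, and the median log2 fold change was -0.04. Adgre1, the F4/80 antigen of the sort, was at 564 and 433 CPM and Csf1r at 1311 and 939 CPM, both uncalled with groups that did not overlap; these are named after their values were seen. Mir21a had 0 CPM throughout these mRNA libraries, so that it did not check the genotype labels.

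Of the 10 chemokines, 8 passed the filter, and Cxcl12 and Cxcl13 did not. Against shares of 2.89% called higher and 4.23% lower over all tested genes, 3 of the 8 rose in miR-21 null TAMs. These were the CXCR3 ligands Cxcl9, Cxcl10 and Cxcl11, while 1 fell, Cxcl14, and 4 were not called. Cxcl11 and Cxcl14 reached the filter only through the genotype where they were high, so their part in these counts and in the median of the 8 supports nothing further, and without a filter on low values 2 genes were called higher, Cxcl9 and Cxcl10. The 4 WT and 4 miR-21 null values did not overlap for 4 of the 8, the same genes as those called, and 35.1% of all tested genes had groups that did not overlap. The median log2 fold change of the 8 was 0.33, with 6 positive and 2 negative values. In these bulk samples, a change in the number of cells that carry an mRNA and a change in the amount per cell cannot be told apart.

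**Figure D1:**
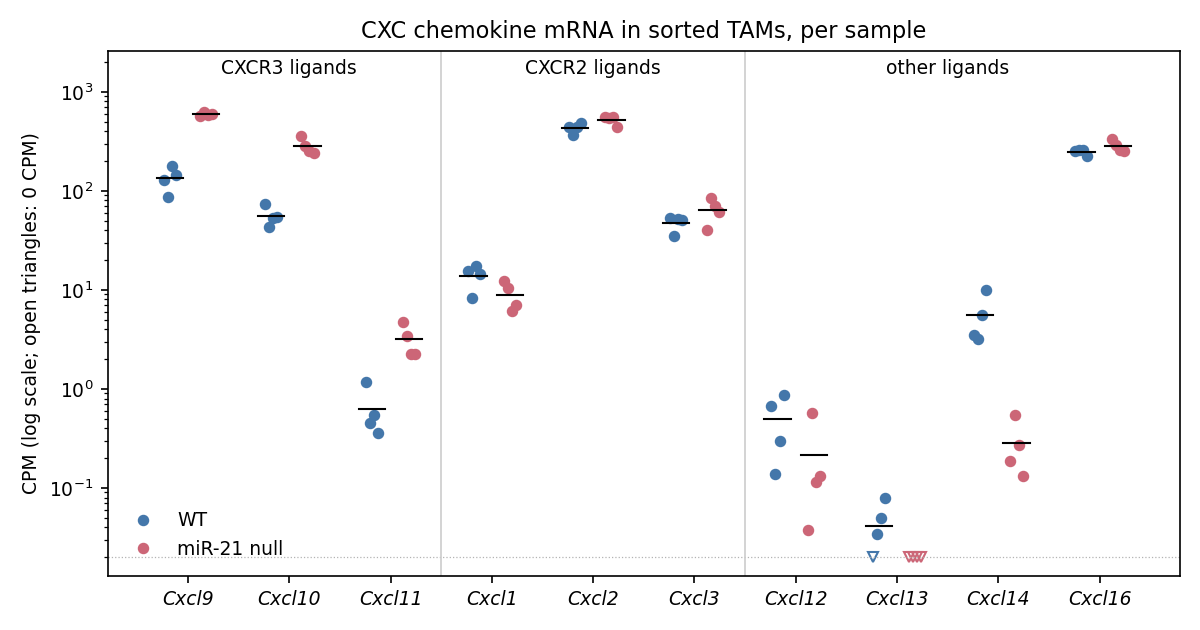
CPM (log axis) of the 10 chemokines in each of the 4 WT (blue) and 4 miR-21 null (red) TAM samples, with black bars at the group means and open triangles for 0 CPM. The groups stand apart for Cxcl9, Cxcl10, Cxcl11 and Cxcl14, and overlap for the other 6.

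Cxcl9, the CXCR3 ligand that depends most closely on interferon-γ, was at 129.6, 85.7, 178 and 145 CPM in WT replicates 1 to 4. In miR-21 null replicates 1 to 4 it was at 571, 622, 577 and 594 CPM. The lowest miR-21 null sample was 3.21 times the highest WT sample, and the miR-21 null samples lay within a narrow band. The means were 135 ± 38.4 and 591 ± 22.5 CPM (SD, n = 4 each), a ratio of 4.39, with a log2 fold change of 2.17 ± 0.18 (SE, limma adjusted p = 3.08e-05). Ranked from the highest fold change, Cxcl9 was number 26 of the 13850 tested genes.

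Cxcl10, which is induced by type I and type II interferons and by TNF, was at 74.0, 42.9, 53.3 and 54.0 CPM in WT and at 357, 287, 250.5 and 239 CPM in miR-21 null replicates 1 to 4. Here too the lowest miR-21 null sample was above every WT sample, by 3.23 times the highest of them. The means were 56.1 ± 12.99 and 283 ± 53.2 CPM (SD, n = 4 each), a ratio of 5.05, with a log2 fold change of 2.33 ± 0.16 (SE, limma adjusted p = 1.51e-05). It was number 21 of all tested genes.

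Cxcl11 carries a frameshift in this strain and is annotated as a polymorphic pseudogene in the table, so that its mRNA does not stand for a full chemokine here. It was at 1.17, 0.450, 0.544 and 0.358 CPM in WT samples, or 35, 13, 11 and 9 reads, and at 4.78, 3.39, 2.23 and 2.25 CPM in miR-21 null samples, or 128, 113, 58 and 68 reads. The order of the genotypes was that of Cxcl9 and Cxcl10, at a level far below theirs. The ratio of the means was 5.01, and the log2 fold change of 1.33 ± 0.21 (SE, limma adjusted p = 0.00124) is smaller than that ratio because of the added 1 CPM. With a pseudocount of 0.1 it was 2.20, and with one of 10 it was 0.30 and not called. The call was also lost without the filter, with an adjusted p of 0.00935, and without miR-21 null replicate 2, with an adjusted p barely above the limit.

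The proportions among the CXCR3 ligands overlapped between the genotypes. The ratio of Cxcl9 to Cxcl10 CPM was 2.44 ± 0.717 in WT and 2.14 ± 0.383 in miR-21 null TAMs, with overlapping samples. The ratio of Cxcl10 to Cxcl11 was 102 ± 36.2 and 94.5 ± 17.7 (SD, n = 4 each), again with overlap. These ratios are descriptions and were not tested.

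Cxcl2, the neutrophil attractant also known as MIP-2, was at 447, 363, 445 and 484 CPM in WT and at 555, 544, 556 and 441 CPM in miR-21 null samples. Replicates 1 to 3 of the miR-21 null group were above every WT sample, and replicate 4 was below 3 of the 4. The log2 fold change was 0.27 with a 95% interval of 0.04 to 0.50 (limma adjusted p = 0.0639).

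Cxcl1, also known as KC, was at 15.6, 8.31, 17.4 and 14.6 CPM in WT and at 12.2, 10.6, 6.07 and 7.08 CPM in miR-21 null samples. WT replicate 2 was among the low samples and the groups overlapped. The log2 fold change was -0.59 with a 95% interval of -1.12 to -0.05 (limma adjusted p = 0.0828), a sign opposite to that of Cxcl2 and Cxcl3. Cxcl3, the close relative of Cxcl1 and Cxcl2, was at 52.8, 35.2, 51.9 and 50.4 CPM in WT and at 40.4, 83.8, 70.3 and 60.8 CPM in miR-21 null samples. Its groups overlapped through miR-21 null replicate 1, and the log2 fold change was 0.39 with an interval of -0.07 to 0.84 (adjusted p = 0.164). It moved with single samples, to 0.59 (limma adjusted p = 0.0188) without miR-21 null replicate 1, 0.24 (0.379) without miR-21 null replicate 2 and 0.25 (0.378) without WT replicate 2.

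No CXCR2 ligand was called, and the intervals leave out rises as large as those of Cxcl9 and Cxcl10. The ratio of Cxcl2 to Cxcl1 CPM was between 25.6 and 43.7 in WT and between 45.6 and 91.6 in miR-21 null samples. These ranges did not overlap, which is a description of a ratio chosen after the values were seen. Cxcl2 made up 87.7% ± 1.30 of the summed CPM of Cxcl1, Cxcl2 and Cxcl3 in WT and 87.8% ± 2.61 in miR-21 null TAMs (SD, n = 4 each). Reads that fit more than 1 of these close paralogs may have been shared among them, which the sources used here do not settle.

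**Figure D2:**
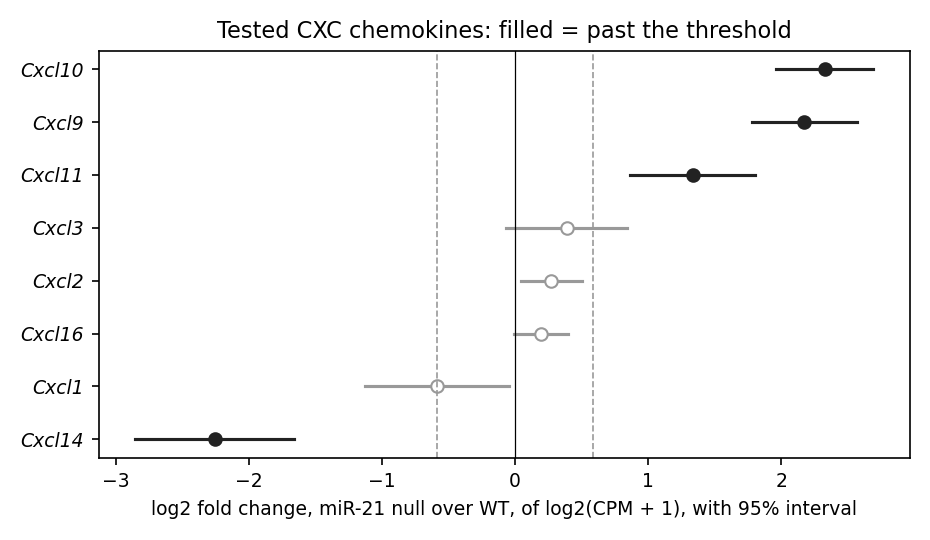
Log2 fold change (miR-21 null over WT, of log2(CPM + 1)) of the 8 tested chemokines with 95% intervals, filled where the gene was called and open where it was not. Dashed lines mark a fold change of 1.5; Cxcl9 and Cxcl10 are above 2, Cxcl14 is at -2.26 and the intervals of Cxcl3 and Cxcl16 include 0.

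Cxcl14 was at 3.51, 3.22, 5.54 and 9.96 CPM in WT, from 93 to 250 reads, and at 0.187, 0.540, 0.269 and 0.132 CPM in miR-21 null samples, from 4 to 18 reads. Every WT sample was at least 5.97 times the highest miR-21 null sample. The means were 5.56 ± 3.11 and 0.282 ± 0.181 CPM (SD, n = 4 each), a WT level 19.7 times that of miR-21 null TAMs, with a log2 fold change of -2.26 ± 0.27 (SE, limma adjusted p = 0.000269). Counted from the lowest fold change, it was number 22 of all tested genes. As Cxcl14 passed the filter only through WT, this rank is a description and supports nothing further. The difference came to -3.85 with a pseudocount of 0.1 and to -0.58, not called, with one of 10.

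Fibroblast markers differed between the genotypes in the same direction as Cxcl14. Fibroblasts lack CD45, CD11b and F4/80, and how fully the sort removed them is not given in the sources used here. The 7 markers examined summed to 97.3, 67.0, 88.3 and 143 CPM in WT and to 11.6, 45.9, 15.9 and 12.6 CPM in miR-21 null samples. Of the 6 tested, 4 fell, where 4.23% of all tested genes did, with a median log2 fold change of -2.07 over the 6. Col3a1, a fibrillar collagen, was highest at 36.4 ± 15.5 in WT and 6.99 ± 7.54 CPM in miR-21 null TAMs. No marker of the list was at 0 in every sample. The sample with the highest marker sum was also the highest for Cxcl14 within each genotype, namely WT replicate 4 and miR-21 null replicate 2. The part of these cells in the Cxcl14 result was not tested. Without miR-21 null replicate 2 the log2 fold change of Cxcl14 was -2.35.

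Cxcl12, the CXCR4 ligand of stromal cells, did not pass the filter, with 20, 4, 6 and 22 reads in WT and 1, 19, 3 and 4 reads in miR-21 null samples. The levels were 0.669, 0.139, 0.297 and 0.876 CPM and 0.0373, 0.570, 0.115 and 0.132 CPM. WT replicate 4 and miR-21 null replicate 2 were again the highest of their groups, the groups overlapped, and a 2-sided exact permutation test gave p = 0.171, where the smallest p possible with 4 against 4 samples is 0.0286. Cxcl13, the B cell attractant, had 0, 1, 1 and 2 reads in WT and none in miR-21 null samples (exact permutation p = 0.143), and a count of 0 allows up to 3 reads, or 0.0899 to 0.115 CPM, in each miR-21 null sample. These limits cover counting error only, and no difference in Cxcl13 was detectable at this depth.

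**Figure D3:**
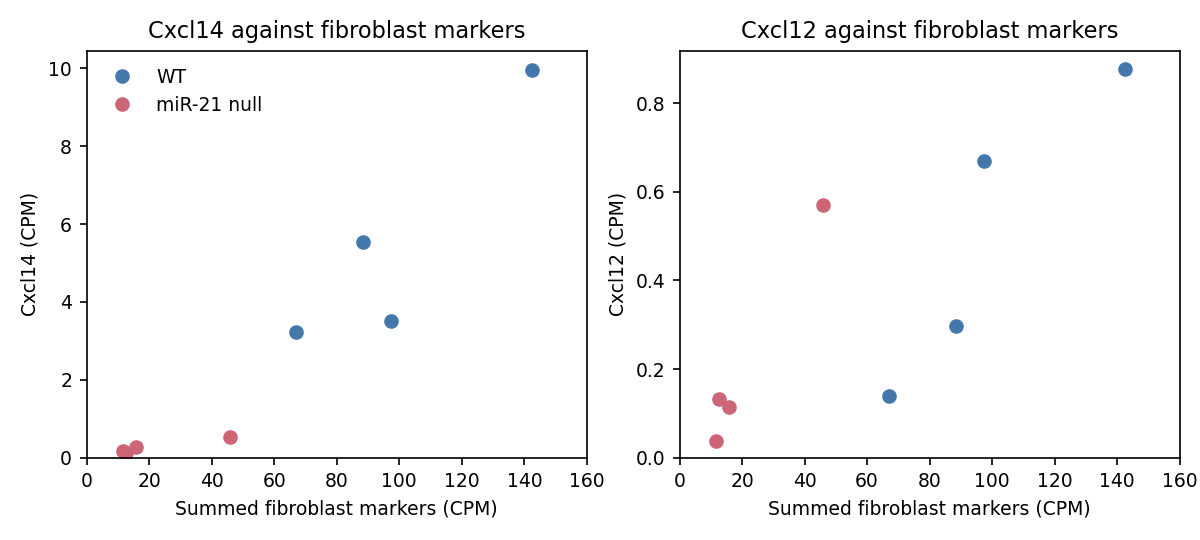
CPM of Cxcl14 (left) and Cxcl12 (right) against the summed CPM of 7 fibroblast markers in each WT (blue) and miR-21 null (red) sample. WT samples lie at marker sums of 67.0 to 143 CPM and miR-21 null samples at 11.6 to 45.9 CPM, and the highest marker sum within each genotype goes with the highest Cxcl14 and Cxcl12.

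Cxcl16 was at 252, 257, 259 and 224 CPM in WT and at 337, 288, 260.4 and 255 CPM in miR-21 null samples. The lowest miR-21 null sample fell among the WT samples, and the log2 fold change was 0.19 with a 95% interval of -0.01 to 0.40 (limma adjusted p = 0.119). It was 0.11 without miR-21 null replicate 1 and 0.31 (adjusted p = 0.0321) with samples rescaled by the median of ratios, not called in either. Of its 3021 annotated exonic bases, 552 are shared with Zmynd15, a gene on the opposite strand at 38.2 to 67.9 CPM, and whether reads were counted by strand is not given in the sources used here. Cxcl10 shares 133 of 2252 exonic bases with Art3, which was at 0.139 to 1.85 CPM, and Cxcl11 shares 1582 of 3794 with Gm2673, which was listed at 0 CPM in all samples.

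Per kilobase of the principal transcript, levels can be ordered across genes. In WT TAMs Cxcl2 led at 392 ± 46.0 CPM per kb, followed by Cxcl16 at 91.9 ± 5.97, then Cxcl10 at 51.2 ± 11.9, Cxcl3 at 46.8 ± 8.16 and Cxcl9 at 46.6 ± 13.3 (SD, n = 4 each). The samples of these last 3 genes overlapped and their order is not resolved. In miR-21 null TAMs the order was Cxcl2 at 473 ± 49.9, Cxcl10 at 259 ± 48.6, Cxcl9 at 205 ± 7.78, Cxcl16 at 106 ± 13.9 and Cxcl3 at 62.8 ± 17.96 CPM per kb, and no range of samples overlapped that of its neighbor. Cxcl1 was at 14.6 and 9.41, Cxcl14 at 3.04 and 0.154, Cxcl11 at 0.399 and 2.00, Cxcl12 at 0.158 and 0.0682 and Cxcl13 at 0.0356 and 0 CPM per kb in WT and miR-21 null TAMs.

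Summed per kb, the CXCR3 ligands were at 98.2 ± 20.2 in WT and 466 ± 47.8 in miR-21 null TAMs, and the CXCR2 ligands at 453 ± 56.9 and 545 ± 54.6 CPM per kb. On this scale the CXCR2 ligands were above the CXCR3 ligands in each of the 8 samples. On plain CPM, which favors longer transcripts, the order turned in the 4 miR-21 null samples, with ratios of CXCR3 to CXCR2 ligands of 1.31 to 1.64, against 0.318 to 0.452 in WT. With the sums per kb, the ratio of CXCR3 to CXCR2 ligands was 0.215 ± 0.0266 in WT and 0.858 ± 0.0933 in miR-21 null TAMs. No miR-21 null sample was under 0.746 where no WT sample was over 0.240. On plain CPM sums the log2 of this ratio was -1.40 ± 0.21 in WT and 0.56 ± 0.14 in miR-21 null TAMs, a difference of 1.96, against 2.00 with the sums per kb. The share of CXCR3 ligands in the summed CPM per kb of the 10 genes was 15.1% and 41.7%, that of CXCR2 ligands 70.03% and 48.8%, and that of Cxcl16 14.4% and 9.46%. As the groups of ligands were formed with results of these data known, these sums are given with no test.

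**Figure D4:**
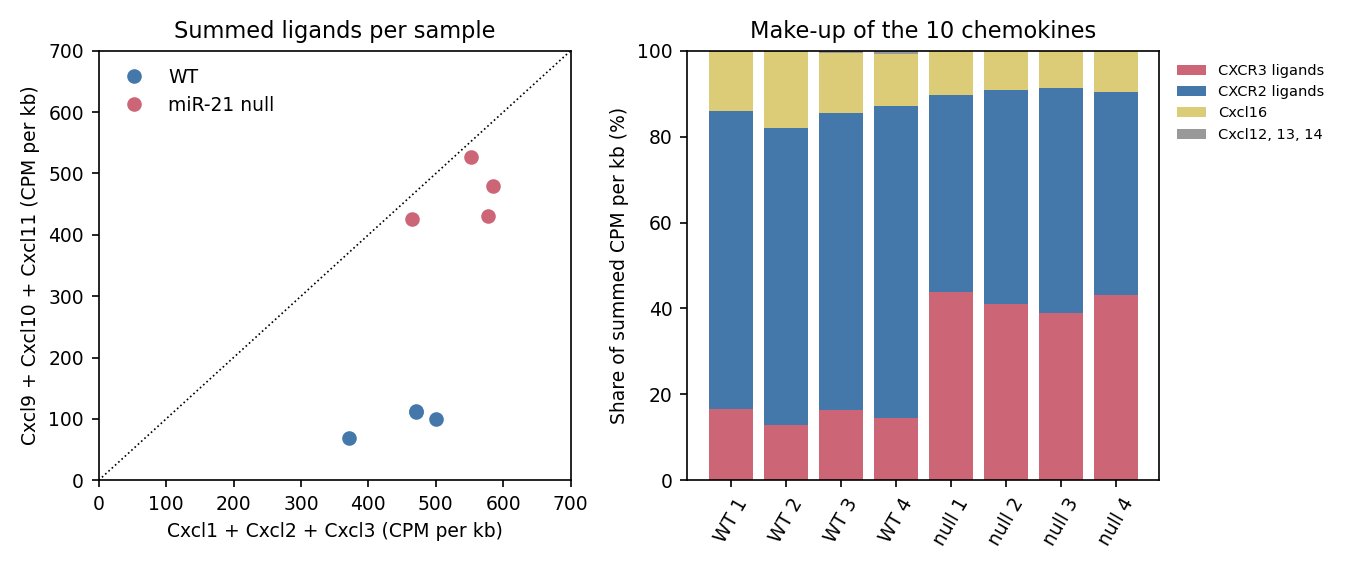
Left, summed CXCR3 ligands against summed CXCR2 ligands (CPM per kb) in each sample, with a dotted line of equality; right, the share (%) of each ligand group in the summed CPM per kb of the 10 genes by sample. The WT samples lie at 69.2 to 113 and the miR-21 null samples at 425 to 527 CPM per kb of CXCR3 ligands, all 8 under the line.

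The CXCR3 and CXCR2 ligands form separate blocks on chromosome 5 (GRCm38). Cxcl9 (chr5:92321347-92328079), Cxcl10 (chr5:92346638-92348889) and Cxcl11 (chr5:92359544-92365485) lie side by side on the minus strand. Cxcl3 (chr5:90786103-90789600), Cxcl1 (chr5:90891241-90893115) and Cxcl2 (chr5:90903871-90905938) lie on the plus strand. Within 250 kb of the CXCR3 ligand block, 1 of the 8 other tested genes was called, Naaa, a lysosomal amidase that breaks down fatty acid ethanolamides, at 149.7 ± 18.6 in WT and 330.2 ± 13.4 CPM in miR-21 null TAMs (log2 fold change 1.14, adjusted p = 1.73e-05). Art3, whose gene spans Cxcl10 and Cxcl11, was at 0.394 and 1.29 CPM and was not called (adjusted p = 0.00631). It reached the filter only through the miR-21 null group. Sdad1, which lies between Naaa and Cxcl9, was at 46.9 and 47.1 CPM with a log2 fold change of 0.01. Near the CXCR2 ligand block none of 6 other tested genes was called, with log2 fold changes from -0.50 to 0.59. These neighbors were chosen by distance alone, and 7.12% of all tested genes were called.

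**Figure D5:**
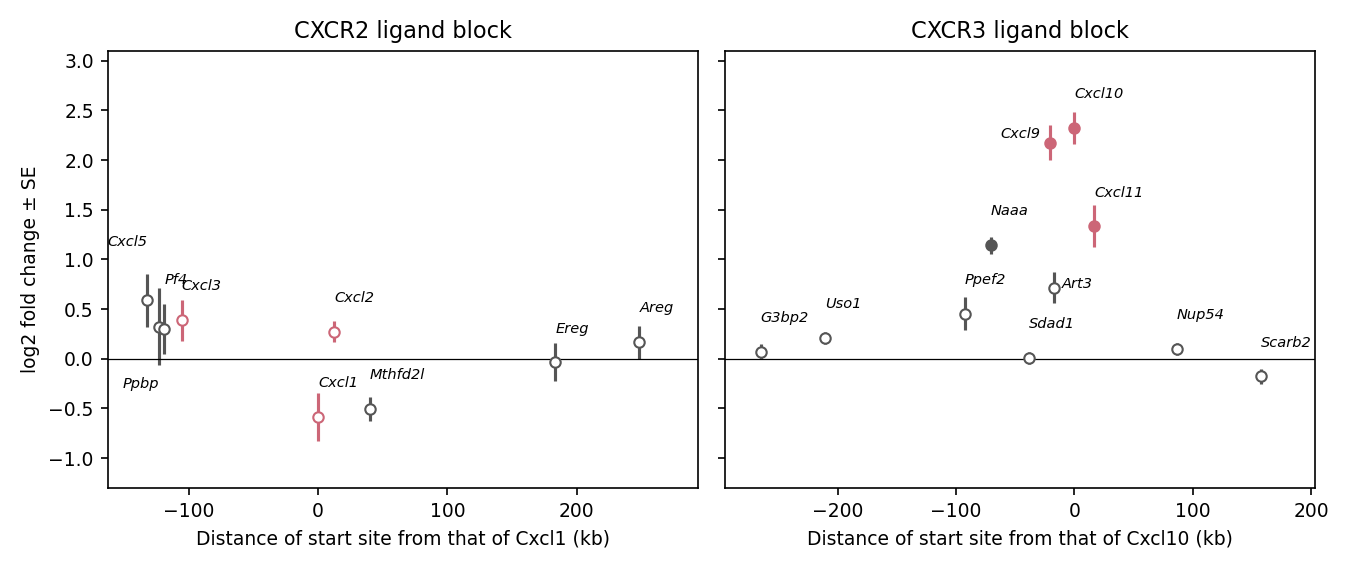
Log2 fold change ± SE (miR-21 null over WT) of tested genes within 250 kb of the CXCR2 ligand block (left) and the CXCR3 ligand block (right), by distance in kb from the start sites of Cxcl1 and Cxcl10, with the chemokines of the 10 in red and called genes filled. Cxcl9, Cxcl10, Cxcl11 and Naaa are filled on the right, and no gene is filled on the left.

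Promoters of 8 of the 10 genes were found in RefSeq (GRCm38.p6), those of Cxcl11 and Cxcl16 not being matched. They were searched on both strands, from 250 bases before to 50 after the start site, for short letter patterns known from NF-κB and interferon response elements. The pattern GGAATTTCC, a κB site, was found in Cxcl1, Cxcl2, Cxcl3 and Cxcl10, 4 of the 8 promoters, and in 0.317% of 32851 promoters of that length. It began at -70, -96 and -72 in Cxcl1, Cxcl2 and Cxcl3 and at -158 in Cxcl10. The looser pattern GGGANTTCC was found at -42 in Cxcl9 and at -103 in Cxcl10, and in 1.68% of all promoters. The pattern AAANNGAAA, found in interferon-stimulated response elements, was present at -212 in Cxcl10 and at -171 in Cxcl14, and in 10.6% of all promoters. The pattern TTCNNNGAA of interferon-γ activated sites was present in Cxcl14 and in 8.30% of all promoters. A match of letters is a description of the sequence and not a site of binding. Capitals mark the matches to these patterns in the stretches directly upstream of the start site, 100 bases for Cxcl1, Cxcl2, Cxcl3 and Cxcl9 and 250 for Cxcl10 and Cxcl14. They are shown to set the genes that were called beside the CXCR2 ligands. Cxcl9 held neither of the interferon-type patterns used, and other forms of such elements were not searched for. Any relation between these matches and the changes in level was not tested. The RefSeq start sites of Cxcl1 and Cxcl2 lie just inside the GENCODE genes.
Cxcl1, chr5:90891145-90891244, plus strand: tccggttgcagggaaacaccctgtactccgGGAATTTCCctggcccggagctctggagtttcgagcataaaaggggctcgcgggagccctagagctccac
Cxcl2, chr5:90903799-90903898, plus strand: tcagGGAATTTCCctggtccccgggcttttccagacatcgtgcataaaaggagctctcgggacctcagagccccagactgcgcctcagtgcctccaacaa
Cxcl3, chr5:90786001-90786100, plus strand: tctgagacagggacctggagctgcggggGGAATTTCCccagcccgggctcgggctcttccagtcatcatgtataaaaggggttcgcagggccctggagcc
Cxcl9, chr5:92328080-92328179, minus strand: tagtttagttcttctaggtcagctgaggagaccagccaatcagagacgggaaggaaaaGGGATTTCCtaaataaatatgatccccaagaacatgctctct
Cxcl10, chr5:92348890-92349139, minus strand: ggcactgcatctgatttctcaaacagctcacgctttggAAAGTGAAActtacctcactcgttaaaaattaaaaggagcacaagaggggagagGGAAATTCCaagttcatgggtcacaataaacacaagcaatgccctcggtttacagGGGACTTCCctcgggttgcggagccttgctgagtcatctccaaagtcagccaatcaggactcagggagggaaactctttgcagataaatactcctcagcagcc
Cxcl14, chr13:56296552-56296801, minus strand: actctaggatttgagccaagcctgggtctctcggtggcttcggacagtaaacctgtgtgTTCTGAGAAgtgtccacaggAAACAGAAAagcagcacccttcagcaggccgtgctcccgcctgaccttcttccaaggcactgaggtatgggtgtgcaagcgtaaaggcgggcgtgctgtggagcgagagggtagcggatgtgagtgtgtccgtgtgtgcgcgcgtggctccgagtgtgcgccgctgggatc
A TATA-like element (ATAAAA) was found in Cxcl1, Cxcl2 and Cxcl3 and in 18.5% of all promoters.

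The deleted miRNA, miR-21a-5p, is encoded at chr11:86584120-86584141 on the minus strand (RefSeq, GRCm38.p6), and its seed, bases 2 to 8, is in capitals.
miR-21a-5p: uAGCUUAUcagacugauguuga
The complement of the seed, ATAAGCT, was searched in the 3′ UTR of the principal GENCODE transcript of each chemokine. Of the 10, Cxcl9 had it, once, from base 1453 of a 3′ UTR of 2452 bases, and it was not followed by an A. It was present in 7.01% of 11397 tested genes with a 3′ UTR and in 11.8% of those with 2000 to 3000 bases. The site is shown with its flanks, the match in capitals.
Cxcl9: catctagaaacATAAGCTtacatggaagac
Cxcl10, Cxcl11 and Cxcl14, the other genes called, had no match to the whole of ATAAGCT. Its shorter part TAAGCT was present once in each of Cxcl10, Cxcl11 and Cxcl12 and absent from Cxcl14. The share of all tested genes with that shorter part was not counted. The AU-rich pattern TTATTTATT, bound by proteins that hasten mRNA decay, was found in Cxcl1, Cxcl2 and Cxcl3 with 2, 4 and 1 copies and in none of the other 7. It was present in 7.53% of all tested genes with a 3′ UTR and in 4.93% of those with 500 to 1000 bases. The first copy in each CXCR2 ligand is shown in capitals with its flanks.
Cxcl1: atttatgtatTTATTTATTccacaaagtgt
Cxcl2: gagagttcacTTATTTATTtatctatgtat
Cxcl3: ttatcagttgTTATTTATTgaaatggtctt

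Of the other CXC ligands, Pf4, the platelet chemokine CXCL4 that macrophages also make, was at 196 ± 68.5 in WT and 235 ± 57.0 CPM in miR-21 null TAMs (adjusted p = 0.376). Ppbp, the CXCR2 ligand CXCL7 of platelets, was at 56.1 ± 35.2 and 61.95 ± 16.6 CPM (adjusted p = 0.548). Cxcl5, a further CXCR2 ligand, was at 0.858 ± 0.710 and 1.69 ± 0.667 CPM (adjusted p = 0.114). None of these 3 was called, and Cxcl15 and Cxcl17 were below the filter with at most 0.0992 CPM in any sample.

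Among the CXC receptors, 1 of 7 tested was called, where 7.12% of all tested genes were. Cxcr4, the receptor of Cxcl12, fell, with 125, 139, 129.9 and 119 CPM in WT and 70.2, 65.7, 69.0 and 56.9 CPM in miR-21 null samples. The groups did not overlap, and the log2 fold change was -0.96 ± 0.08 (SE, limma adjusted p = 2.39e-05). Cxcr2, the receptor of Cxcl1, Cxcl2 and Cxcl3 on neutrophils, was at 64.1 ± 10.5 and 49.3 ± 5.53 CPM (adjusted p = 0.0335). Cxcr3, the receptor of the ligands that rose, was at 2.02 ± 0.484 and 1.10 ± 0.482 CPM (adjusted p = 0.0351). Cxcr6, the receptor of Cxcl16, was at 1.64 ± 0.251 and 2.95 ± 0.910 CPM (adjusted p = 0.0216) with groups that did not overlap. Cxcr1 was at 2.70 and 1.53, Cxcr5 at 1.38 and 1.07 and the scavenger receptor Ackr3 at 1.79 and 1.26 CPM, all without a call, and Ackr1 was below the filter. The 7 receptors had a median log2 fold change of -0.36.

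Of 5 proteases that cut CXC ligands, 2 fell and none rose, against 4.23% called lower and 2.89% higher over all tested genes. Dpp4, which removes the N-terminal dipeptide of Cxcl9, Cxcl10, Cxcl11 and Cxcl12 and blunts their activity, was at 7.03 ± 1.205 in WT and 2.91 ± 0.581 CPM in miR-21 null TAMs (log2 fold change -1.04 ± 0.14, adjusted p = 0.000467). Mmp8, a neutrophil collagenase, was at 61.3 ± 6.52 and 35.2 ± 8.58 CPM (log2 fold change -0.81 ± 0.16, adjusted p = 0.00379). Adam10, the sheddase of Cxcl16, was at 142 and 141 CPM and is named after its values were seen. The median of the 5 was -0.81.

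The route from interferon-γ to the CXCR3 ligands runs through its receptor and the kinases Jak1 and Jak2 to transcription factors such as Irf1. Of 11 genes of this route tested, 4 rose and 1 fell, with a median log2 fold change of 0.54. Over all tested genes 2.89% were called higher and 4.23% lower. Socs1, a feedback inhibitor of the kinases, was at 5.18 ± 1.09 in WT and 26.2 ± 5.36 CPM in miR-21 null TAMs (log2 fold change 2.14 ± 0.16, adjusted p = 1.66e-05). Irf1 was at 121 ± 17.9 and 376 ± 51.7 CPM (log2 fold change 1.63 ± 0.12, adjusted p = 1.61e-05). Nlrc5, which drives MHC class I transcription, also rose, and the gene that fell was Ifngr1, the ligand-binding receptor chain, at 256 ± 26.6 and 154 ± 11.3 CPM. Ifng itself was at 0.866, 0.208, 0.484 and 0.298 CPM in WT and at 2.45, 2.00, 0.994 and 3.58 CPM in miR-21 null samples. Its groups did not overlap but it was not called (adjusted p = 0.00554). Ifng reached the filter only through the miR-21 null group, so its part in the median of the 11 supports nothing further. Nlrc5, Ifngr1 and Ifng are named after their values were seen.

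Of 10 genes of the NF-κB and TNF route, which drives the CXCR2 ligands, 1 was called, where 7.12% of all tested genes were. Tnf was at 31.3 ± 6.67 in WT and 61.5 ± 9.29 CPM in miR-21 null TAMs (log2 fold change 0.97 ± 0.15, limma adjusted p = 0.00115), with groups that did not overlap. The median of the 10 was 0.15, against 0.54 for the interferon-γ route and -0.10 for all tested genes, and the difference between the routes was not tested. Zfp36, which binds the AU-rich pattern of the CXCR2 ligands, was at 558 and 569.6 CPM; it is named after its values were seen.

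Cells that answer to these chemokines, or make them, were followed by marker lists. The 8 neutrophil markers, with S100a9 highest at 369 and 237 CPM, summed to 749 to 1131 CPM in WT and 554 to 726 CPM in miR-21 null samples, and 1 of the 7 tested fell, Mmp8, with a median of -0.39. Most of that sum was S100a8, S100a9 and Csf3r, while Ly6g was at 1.91 and 2.59, Ltf at 0.889 and 1.16, Ngp at 1.13 and 0.961 and, below the filter, Camp at 0.106 and 0.110 CPM. The 9 T cell markers, with Cd4 highest on average, summed to 23.8 to 44.0 and 11.0 to 47.5 CPM, and 1 of 9 fell, Cd4, which was at 16.6 and 2.19 CPM. The median log2 fold change of the 9 was 0.20, and Cd3d was at 1.08 and 1.14, Cd3e at 2.20 and 3.22, Cd3g at 2.08 and 3.14 and Trac at 3.29 and 3.73 CPM. Cd8a was at 1.92 ± 0.413 and 6.71 ± 3.66 CPM and was not called (limma adjusted p = 0.00804). The 5 NK cell markers summed to 3.39 to 10.8 and 6.80 to 18.1 CPM with none of 2 tested called. That sum was mostly Prf1, at 3.85 and 9.74 CPM, while Gzma was at 0.944 and 0.951 and, below the filter, Ncr1 at 0.340 and 0.123, Klrb1c at 0.491 and 0.391 and Eomes at 0.187 and 0.243 CPM. The 7 dendritic cell markers summed to 11.2 to 19.9 and 15.2 to 38.4 CPM, with none of 6 tested called and a median log2 fold change of -0.22. Their sum moved with Xcr1, the highest, at 3.54 and 9.61 CPM, and Clec9a at 2.54 and 8.18 CPM, while Cd209a was at 2.62 and 0.396, Flt3 at 1.69 and 0.924, Zbtb46 at 1.51 and 0.875 and Ccr7 at 3.02 and 2.87 CPM. The 5 B cell markers, led by Cd79b at 12.7 and 4.03 CPM, summed to 11.4 to 17.6 and 3.84 to 11.3 CPM, and Cd79b, the 1 tested, fell. The 5 endothelial markers summed to 151 to 299.8 and 198 to 286 CPM, nearly all of it Pecam1 at 192 and 218 CPM, with none of 3 tested called and a median of -0.19. Kdr was at 10.9 and 9.68, Cdh5 at 5.88 and 4.96, Tie1 at 0.359 and 0.198 and Cldn5 at 0.151 and 0.0192 CPM. Epithelial or tumor cell markers, led by Krt8 at 10.5 and 7.77 CPM, summed to 18.8 to 24.8 and 12.7 to 17.9 CPM, with none of 3 called. The 5 platelet markers summed to 22.1 to 105 and 48.9 to 85.7 CPM, those other than Ppbp were below the filter, and Gp1bb was at 0 in all samples. The markers named beside the highest of each list are named after their values were seen. For the counts of these lists, 2.89% of all tested genes were called higher and 4.23% lower. The part of any of these cells in the chemokine results was not tested.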

How the data were processed

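RNA-Seq of sorted TAMs was analysed in 8 samples, 4 WT and 4 miR-21 null, which the labels call biological replicates. The authors deposited one table of CPM values with 0.0001 added to each; the submitters' processing notes name STAR, Partek 7.0 and mm10, and strand and the handling of shared reads are not given in the sources used here. The added amount was removed. Total reads per sample, read from the steps of low values, in units of 1e+06, were 20.2 to 29.9 in WT and 26.0 to 33.4 in miR-21 null samples. Up to 20 reads, 72.6% to 73.6% of values were whole within 0.02 reads, so whole reads were not recovered and the count test listed as an alternative was not run.

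The filter kept 13850 genes whose mean reached 1 per 1e+06 of the column totals. Their log2(CPM + 1) values entered a limma fit (version 3.58.1, R 4.3.3, lmFit and eBayes with trend) with genotype as the only term. The limits, an adjusted p of 0.005 and a fold change of 1.5, were those of the study. Exact permutation tests over samples were used below the filter. The fit was tested on simulated data. Transcript lengths, 3′ UTRs and coordinates came from GENCODE M21, promoters and the miRNA from RefSeq (GRCm38.p6), and figures from matplotlib 3.10.9. Alternatives were other pseudocounts, filters, scalings, spreads and thresholds, a replicate block and leaving out each sample.

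The genes named are all 10 chemokines, every other CXC ligand and receptor of the lists, up to 3 called genes of each further pathway list with the largest change, the marker with the highest mean of each list, and Mir21a; others are said to be named after their values were seen or are listed as neighbors, overlapping genes or counted calls. A gene that this rule selects is not reported here. The members and lists were chosen with earlier results of these data known. Precision is limited by 4 samples per genotype and, below a few CPM, by reads.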

Additional observations from a re-analysis of the deposited data

Results flagged for a closer look

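Cxcl2 in miR-21 null TAMs had 1 sample apart from the others, replicate 4 at 441 CPM, where replicates 1 to 3 were between 544 and 556 CPM. Cxcl3 in WT TAMs had replicate 2 at 35.2 CPM, where the others were between 50.4 and 52.8 CPM. The gap to the nearest sample was 0.896 and 0.867 of the range of the group, above the limit of 0.829 for 4 samples. Of 19 groups examined, chance flags about 1 in 20.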

How the results depend on the processing

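Cxcl9 and Cxcl10 were called higher under every alternative run and without each sample in turn, with log2 fold changes of 2.10 to 2.29 and 2.15 to 2.44 over the alternatives. The number of chemokines called higher was 2 or 3 when samples were left out, and that called lower was 1 throughout. With a pseudocount of 10, or a filter of 5 in place of 1 under which Cxcl11 and Cxcl14 were not tested, 2 were called higher and 0 lower, and with no filter 2 and 1. Cxcl1, Cxcl2, Cxcl3 and Cxcl16 kept their sign under all alternatives run. The difference between CXCR3 and CXCR2 ligands on the log2 scale was 1.87 to 2.04 with samples left out and 1.92 to 2.00 under other scalings and summaries. Rescaling by the median of ratios cancels in a ratio within a sample, so it could not move this difference. Among all genes 400 were called higher and 586 lower, against 251 and 201 with a pseudocount of 10, 272 and 245 with no filter, and 1314 and 3668 at an adjusted p of 0.05 with no limit on fold change. After the mean of each gene in its genotype was subtracted, samples of the genotypes with the same replicate number correlated at -0.14 to 0.22. On these remaining differences the replicate numbers did not pair the samples. Without that subtraction, samples of different genotype correlated at 0.970 to 0.981. A block on the replicate numbers called 3 chemokines higher and 1 lower, with 389 and 533 genes in all. From replicate 2 on, the miR-21 null replicate numbers differ from those in the sample titles. Samples whose titles share a number were therefore not matched there, and pairing by title was not tested. Depth limits Cxcl11, Cxcl12, Cxcl13 and Cxcl14, with under 30 reads in at least 1 sample.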
